A study of Mus musculus with 6 samples.

Results

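The genes described here encode the proteasome, and were chosen by name as every mRNA whose symbol, mapped from its Ensembl gene ID, begins with Psma, Psmb, Psmc, Psmd, Psme, Psmf or Psmg followed by a digit. The rule found 50 of the 18437 mRNAs listed. They comprised the 7 α-ring and 7 constitutive β-ring subunits of the 20S core, 6 ATPase and 11 non-ATPase subunits of the 19S regulatory particle, 5 immunoproteasome genes (Psmb8, Psmb9, Psmb10, Psme1 and Psme2), 2 tissue-restricted core paralogs, 2 other activators, 1 inhibitor, 4 assembly chaperones of the 20S core and 3 of the 19S particle. The remaining 2, Psmc3ip and Psme3ip1, share the name pattern but encode interacting proteins and not proteasome subunits. Of the 50 members, 42 were listed in all 6 libraries and 41 had reads in all 6. An mRNA not listed in a library was counted as having no reads there. A member described below as without reads in a library may therefore be unlisted in it and not measured as absent. In the text below, the 31 constitutive subunits are the 14 core subunits and the 17 subunits of the 19S particle.

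The libraries were Ribo-seq libraries, in which mRNA fragments protected by translating ribosomes are sequenced, made from tissues of untreated wild-type (WT) C57BL/6J mice aged 4 weeks. The labels were brain, colon, heart, kidney, lung or small intestine, with 1 library for each, and the number of animals behind a library was not given in the sources used here. The study set these tissues beside macrophages to ask whether codon usage differed between them, and the macrophage libraries were not analysed here. The deposited value was the RPKM of each mRNA, the reads on its coding sequence (CDS) scaled by its length and by the reads on all CDSs of the library, which is called its ribosome density here. Reads recovered from these values numbered between 4504853 and 10635031 per library.

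The proteasome degrades proteins that carry ubiquitin chains. Its 20S core is a stack of rings in which α subunits form the gate and β subunits hold the catalytic sites, and the 19S particle binds the ubiquitin chain, removes it, unfolds the protein and feeds it into the core. In cells exposed to interferon and in many leukocytes, 3 catalytic subunits are replaced by immunosubunits, Psmb8 (β5i) for Psmb5 (β5), Psmb9 (β1i) for Psmb6 (β1) and Psmb10 (β2i) for Psmb7 (β2), and the resulting immunoproteasome, with the activator PA28 made by Psme1 and Psme2, favours the production of peptides that are presented on MHC class I molecules.

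The labels were set against 3 marker genes of each tissue. The heart markers Myh6, Tnnt2 and Myl2 summed to 44751 RPKM in the library labelled heart and to at most 273 RPKM elsewhere, and the lung markers Sftpc, Sftpb and Scgb1a1 summed to 60275 RPKM in the library labelled lung and to at most 359 RPKM elsewhere. The other labels went against their markers. Brain markers were highest in the library labelled small intestine (3049 RPKM), colon markers in that labelled kidney (3288 RPKM), kidney markers in that labelled colon (18523 RPKM) and small intestine markers in that labelled brain (4335 RPKM). The libraries are therefore named only by their labels, as the brain-labelled library and so on, and values from the heart-labelled and lung-labelled libraries alone are given beside the results that rest on the others. Since each label had 1 library, differences between libraries have no replicate check and were not tested. The 95% intervals below are exact intervals of counting error only, since reads without molecular identifiers are not independent molecules. In whole tissue, fewer cells of a type and less RNA per cell cannot be told apart.

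All 50 members took 0.383% of the reads in the brain-labelled library, 0.363% in the colon-labelled, 0.452% in the heart-labelled, 0.185% in the kidney-labelled, 0.380% in the lung-labelled and 0.228% in the small intestine-labelled library. The kidney-labelled and small intestine-labelled libraries were the lowest. The 31 constitutive subunits made up most of these reads, with 0.318%, 0.316%, 0.368%, 0.156%, 0.323% and 0.212% in the same order. The 10 most-read mRNAs took 37.1% of all reads in the kidney-labelled library and between 10.4% and 24.6% in the others, which lowers the RPKM of every other mRNA there. The heart-labelled library was the highest of the 6 for 12 of the 31 constitutive subunits, and the kidney-labelled library was the lowest for 20 and the highest for none. No share over all mRNAs was set beside these counts. They therefore cannot show whether the subunits differ from other mRNAs in this.

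**Figure D1:**
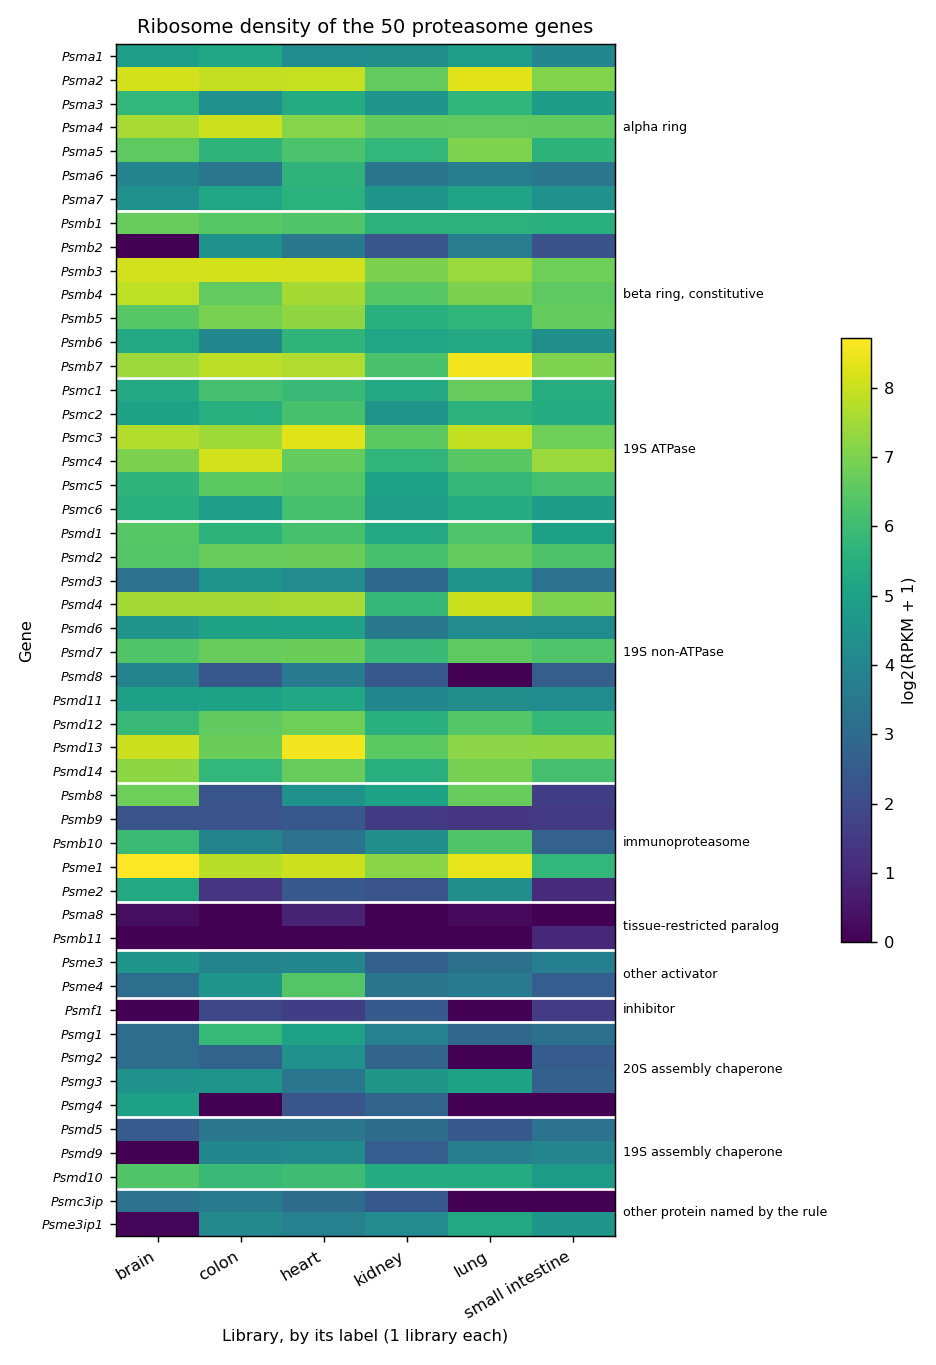
The color of each cell is log2(RPKM + 1), the ribosome density of 1 of the 50 proteasome genes (vertical axis, grouped by role) in 1 of the 6 libraries (horizontal axis, by label). Psmb8 runs from 2.05 to 110 RPKM. A range of at least 4-fold is seen in 4 of the 5 immunoproteasome genes and 7 of the 31 constitutive subunits, Psmb2 and Psmd8 among them. The share among all mRNAs tested is 81.3%.

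For each library, log2(RPKM + 1) was compared with the median of the other 5 libraries. Over the 31 constitutive subunits the median of this difference, minus the median over all 13521 mRNAs tested, was 0.33 in the brain-labelled library, 0.35 in the colon-labelled, 0.71 in the heart-labelled, -0.87 in the kidney-labelled, 0.16 in the lung-labelled and -0.57 in the small intestine-labelled library. The subunits thus lay together on 1 side in some libraries. In the heart-labelled library 29 of the 31 lay above the median of all mRNAs, and in the kidney-labelled library 0 of the 31 did. With scaling by size factors taken as median ratios, the value in the lung-labelled library turned to -0.14, and the signs in the other 5 libraries were unchanged. Set against each other alone, the lung-labelled library was below the heart-labelled one by a median of 0.39 over the constitutive subunits (log2 difference of -0.39), with 0 of 31 at least 2-fold higher (against 34.2% of all mRNAs tested) and 4 at least 2-fold lower (against 22.7%), while the median over all mRNAs was 0.20.

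Members at least 2-fold above or below the median of the other 5 libraries were then counted among the 48 whose mean was at least 1 RPKM, which left out Psma8 and Psmb11. In the brain-labelled library 8 members lay above (16.7%, against 22.6% of all mRNAs tested) and 4 below (8.33%, against 26.1%). In the colon-labelled library 7 lay above (14.6%, against 23.2%) and 4 below (8.33%, against 19.2%). In the heart-labelled library 10 lay above (20.8%, against 20.1%) and 2 below (4.17%, against 20.1%). These shares were near or under those of all mRNAs. With median-of-ratios scaling 17 members lay above in the heart-labelled library (35.4%, against 23.4%), and without the heart-labelled library 13 lay above in the brain-labelled one (27.1%, against 21.3%).

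In the kidney-labelled library 1 member lay above (2.08%, against 19.3%) and 14 below (29.2%, against 17.6%), and 12 of the 14 were constitutive subunits. That count below fell to 7 (14.6%, against 13.6%) with median-of-ratios scaling, to 4 (8.33%, against 12.5%) without the 10 most-read mRNAs in the total and to 9 (18.8%, against 18.4%) without the heart-labelled library. In the lung-labelled library 9 lay above (18.8%, against 31.5%) and 5 below (10.4%, against 19.8%). In the small intestine-labelled library 0 lay above (against 27.8%) and 11 below (22.9%, against 22.6%). Over all 6 libraries, the highest was at least 4-fold above the lowest for 20 of the 48 members (41.7%), against 81.3% of all mRNAs tested. Among the groups, this held for 7 of the 31 constitutive subunits and for 4 of the 5 immunoproteasome genes, Psmb9 being the exception. The median range was 1.49 on the log2 scale for the constitutive subunits and 3.60 for the immunoproteasome genes, beside 3.19 for all mRNAs.

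**Figure D2:**
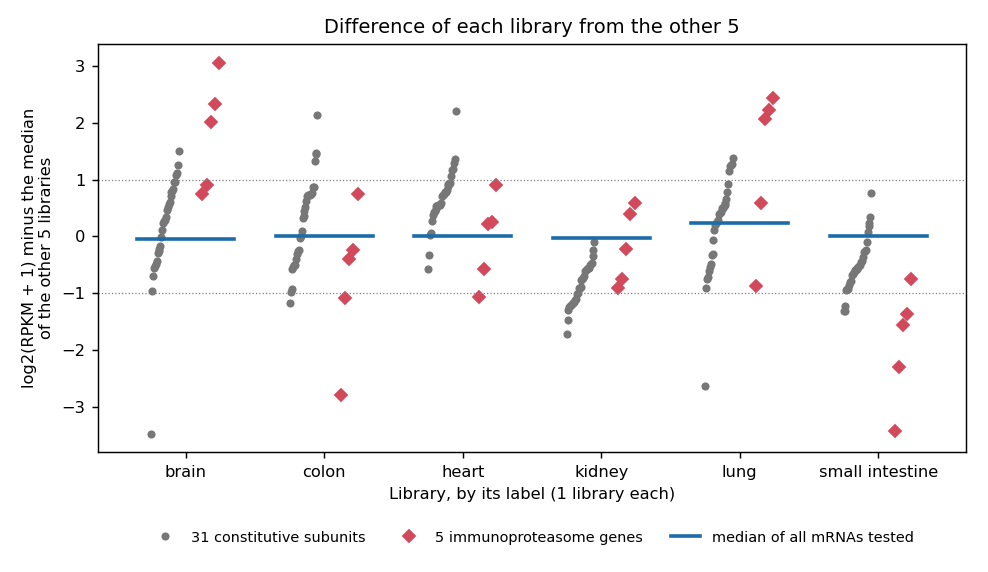
The vertical axis is log2(RPKM + 1) in 1 library minus the median of the other 5, for the 31 constitutive subunits (grey circles) and the 5 immunoproteasome genes (red diamonds), and the horizontal axis gives the library by its label. Dotted lines mark 2-fold and the blue bar is the median of all 13521 mRNAs tested. The constitutive subunits sit above it in the heart-labelled library (29 of 31) and below it in the kidney-labelled one (31 of 31). Of the 5 immunoproteasome genes, 3 lie above the upper dotted line in the brain-labelled (against 22.6% of all mRNAs) and in the lung-labelled library (against 31.5%). In the small intestine-labelled library 4 lie below the lower one (against 22.6%).

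Within the 20S core, which holds each subunit in equal number, the ribosome densities of the 14 constitutive subunits were far from equal. The order ran from Psma2, with a median of 242 RPKM over the 6 libraries, through Psmb3 (225 RPKM) and Psmb7 (188 RPKM), to Psma6 (11.2 RPKM) and Psmb2 (7.03 RPKM). The highest subunit was 29.4-fold above the lowest in the colon-labelled library (95% interval 20.6 to 43.2), 27.6-fold in the heart-labelled (20.8 to 37.4), 32.4-fold in the kidney-labelled (20.3 to 55.0), 32.2-fold in the lung-labelled (24.6 to 42.8) and 38.6-fold in the small intestine-labelled library (23.6 to 67.9). In the brain-labelled library Psmb2 had no reads or was not listed. Psma2 was there 615-fold above the density that 3 reads of Psmb2 would give, or 259-fold with reads thinned to the lowest total. It was 20.0-fold above Psma6, the lowest subunit with reads. The brain-labelled library had the most reads but the fewest mRNAs with any, 11520, beside 11594 in the lung-labelled and 12325 to 15028 in the others. Whether members without reads in either library reflect this was not tested. The intervals overlapped in the 5 libraries where every subunit had reads.

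**Figure D3:**
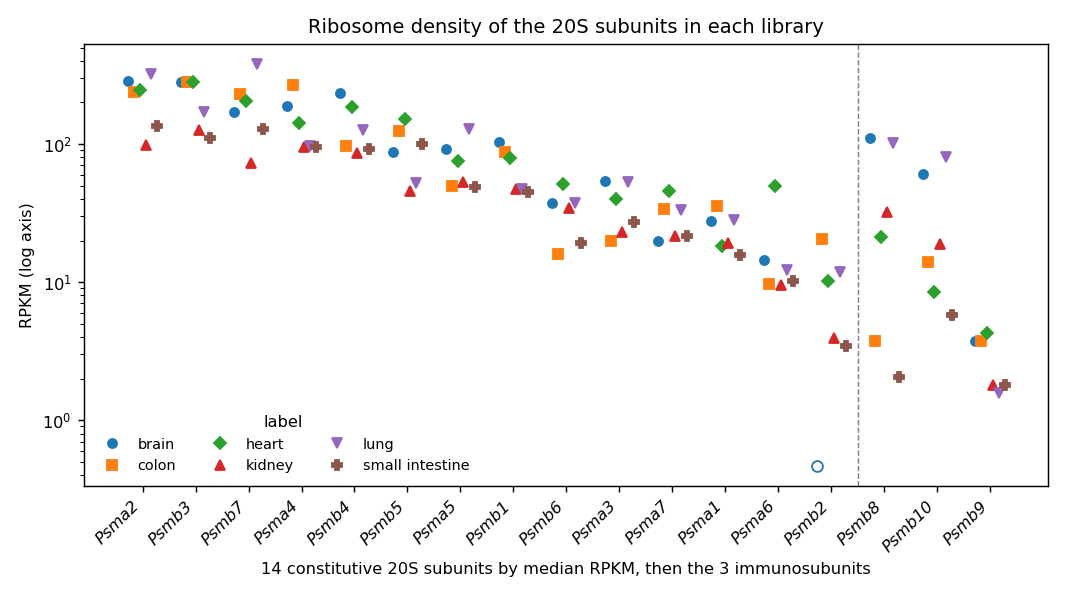
Each symbol is the RPKM (log axis) of a 20S subunit in 1 of the 6 libraries, with the 14 constitutive subunits ordered by their median and the 3 immunosubunits to the right of the dashed line; the open circle is Psmb2 in the brain-labelled library, drawn at the density of 3 reads because it had none. Psma2 is among the highest 3 of the 14 and Psmb2 among the lowest 4 in every library, and Psmb8 covers a wider range than any constitutive subunit that had reads in all 6.

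The order of the subunits was similar from library to library. Spearman's rho between pairs of libraries was between 0.75 and 0.98 over the 14 core subunits (median 0.89 over 15 pairs) and between 0.83 and 0.97 over the 17 subunits of the 19S particle (median 0.88). These are descriptions across genes, which share their CDS length and sequence in all libraries and are not independent replicates. Psma2 ranked between place 1 and place 3 of 14 in every library, and Psmb2 between place 11 and place 14.

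Of the α ring, which gates the core, Psma2 (α2) had 288 RPKM in the brain-labelled library, 240 in the colon-labelled, 245 in the heart-labelled, 98.8 in the kidney-labelled, 319 in the lung-labelled and 134 in the small intestine-labelled library. Psma4 (α3), whose tail is part of the closed gate, had 189, 267, 141, 94.6, 96.6 and 94.7 RPKM in the same order of labels, which is kept from here on. Psma5 (α5) had 92.6, 49.7, 74.9, 53.3, 128 and 49.0 RPKM. These α subunits thus differed in the library where each was highest, lung-labelled for Psma2 and Psma5 and colon-labelled for Psma4. Psma6 (α1) had 14.4, 9.63, 50.01, 9.47, 12.3 and 10.1 RPKM, with the heart-labelled library 5.28-fold above the kidney-labelled (3.93 to 7.21). Psma7 (α4) had 19.8, 33.7, 46.0, 21.6, 33.0 and 21.5 RPKM. Both were highest in the heart-labelled library, and Psma6 was the only α subunit with a range above 4-fold. On the log2(RPKM + 1) scale Psma1 and Psma3 stayed within 2-fold of the median of the other libraries throughout, at 15.6 to 35.4 and 19.7 to 54.0 RPKM.

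Of the noncatalytic β subunits, Psmb1 (β6) had 103, 87.3, 79.8, 47.1, 47.1 and 45.2 RPKM. Psmb3 (β3) had 280, 283, 280, 127, 170 and 111 RPKM. Psmb4 (β7) had 233, 96.7, 185, 86.6, 127 and 92.5 RPKM. All 3 were at or near their lowest in the kidney-labelled and small intestine-labelled libraries. Psmb2 (β4) stood apart, with no reads in the brain-labelled library and 20.6, 10.1, 3.94, 11.8 and 3.47 RPKM, from 16 to 56 reads, in the others. The colon-labelled library was thus 44.1-fold above the density that 3 reads would have given in the brain-labelled one (0.468 RPKM).

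Of the ATPases, which form the ring that unfolds the substrate, Psmc3 had 211, 179, 316, 91.2, 240 and 109 RPKM and was the highest 19S subunit by its median (195 RPKM). Psmc4 had 127, 277, 99.9, 52.5, 89.6 and 169 RPKM. Psmc1 had 39.7, 70.3, 57.4, 37.1, 103 and 42.1 RPKM. The 3 peaked in the heart-labelled, colon-labelled and lung-labelled library, respectively, and were lowest in the kidney-labelled one. Psmc5 had 49.9, 91.1, 83.7, 30.96, 55.5 and 70.3 RPKM. Psmc6 had 43.0, 28.7, 71.7, 27.7, 41.1 and 27.5 RPKM. Psmc2, at 21.8 to 72.2 RPKM, did not reach 2-fold from the median in any library on the log2(RPKM + 1) scale, and it too was highest in the heart-labelled and lowest in the kidney-labelled library.

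Of the non-ATPase subunits, Psmd4, a ubiquitin receptor, had 184, 184, 191, 55.6, 258 and 130 RPKM. Psmd14, the deubiquitinase that removes the chain, had 149, 53.9, 103, 43.4, 122 and 70.3 RPKM. Both were lowest in the kidney-labelled library, by 4.65-fold (4.21 to 5.14) and 3.43-fold (3.03 to 3.895) against their highest library. The scaffold subunit Psmd1 had 86.0, 49.1, 72.0, 37.8, 78.1 and 30.3 RPKM. The lid subunit Psmd13 had 260, 106.7, 374, 90.8, 145 and 152 RPKM and was highest in the heart-labelled library. The lid subunits Psmd3, with 8.46, 23.2, 17.4, 6.97, 21.6 and 8.64 RPKM, and Psmd6, with 22.2, 31.4, 30.5, 10.51, 17.6 and 18.05 RPKM, were both highest in the colon-labelled library. The lowest 19S subunit by its median was the lid subunit Psmd8, with 13.9, 4.19, 10.8, 4.23, 0 and 5.19 RPKM, and no reads in the lung-labelled library, where 3 reads would give 0.366 RPKM. At the other end, Psmd2, the other large scaffold subunit, had the narrowest range of all constitutive subunits, between 72.1 and 106 RPKM (1.47-fold, 1.38 to 1.57), followed by Psmd7 between 57.5 and 108 RPKM (1.88-fold, 1.67 to 2.12). Psmd11 at 15.1 to 35.6 RPKM and Psmd12 at 45.1 to 110 RPKM did not reach 2-fold from the median on that scale in any library.

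The balance of the 19S particle and the 20S core was taken as the ratio of their ribosome densities, summed reads over summed CDS length. The core was its 14 constitutive subunits, without the immunosubunits. Of these, Psmb8 and Psmb10 were highest in the brain-labelled and lung-labelled libraries, where leaving them out lowers the core density most. It was 0.737 in the brain-labelled library (0.721 to 0.754), 0.786 in the colon-labelled (0.759 to 0.813), 0.936 in the heart-labelled (0.913 to 0.959), 0.805 in the kidney-labelled (0.775 to 0.837), 0.813 in the lung-labelled (0.792 to 0.834) and 1.01 in the small intestine-labelled library (0.975 to 1.04). The colon-labelled, kidney-labelled and lung-labelled libraries overlapped within counting error, and the heart-labelled and small intestine-labelled libraries lay above them. The order rested on the summary used, since the ratio of medians was highest in the lung-labelled library, at 1.61.

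The 3 immunosubunits replace catalytic subunits whose active site is the threonine at the start of the mature protein. The CDS around that residue is printed because it shows how alike the paralogs are and where their reads can still be told apart; the capitals mark the codon of that threonine and the bases after it follow, taken from GRCm39 through the GENCODE annotation, release M39.
Psmb5: ACCaccaccctggccttcaagtttctccat
Psmb8: ACAaccacactcgccttcaagttccagcat
Psmb6: ACCacgatcatggctgtgcagtttaatggg
Psmb9: ACAaccatcatggcagtggagtttgacggg
Psmb7: ACTaccatcgcgggggtggtgtataaggat
Psmb10: ACTaccatcgcggggcttgtgttccgagat
The Psmb5 bases are in exons 1 and 2 on the minus strand (chr14:54855251-54855271 and chr14:54854270-54854278), the Psmb8 bases in exon 2 on the plus strand (chr17:34418276-34418305), the Psmb6 bases in exon 2 on the plus strand (chr11:70416711-70416740) and the Psmb9 bases in exon 2 on the minus strand (chr17:34404742-34404771). The Psmb7 bases are in exons 2 and 3 on the minus strand (chr2:38533370-38533396 and chr2:38532285-38532287), and so are the Psmb10 bases (chr8:106664311-106664337 and chr8:106664221-106664223). Of these 30 bases, 24 are the same in Psmb8 and Psmb5, 24 in Psmb9 and Psmb6 and 23 in Psmb10 and Psmb7. The longest stretch that the paralogs share anywhere in their CDSs is 18, 11 and 15 bases. This is shorter than a ribosome footprint of 25 to 35 nt, so a footprint of that length cannot match both paralogs exactly. Reads were kept from 15 nt and with up to 2 mismatches, and whether such reads could fit both was not tested.

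Psmb8 was the member whose density differed most among those with more than 3 reads in every library. It had 110 RPKM in the brain-labelled library, 3.75 in the colon-labelled, 21.1 in the heart-labelled, 32.0 in the kidney-labelled, 102 in the lung-labelled and 2.05 in the small intestine-labelled library. The brain-labelled and lung-labelled libraries overlapped within counting error at the top, as did the colon-labelled and small intestine-labelled libraries at the bottom, and the brain-labelled library was 53.5-fold above the small intestine-labelled one (31.1 to 101). Psmb10 had 60.3, 14.1, 8.51, 18.8, 80.7 and 5.75 RPKM, with the lung-labelled library 14.04-fold above the small intestine-labelled (10.005 to 20.3). The same 3 libraries, brain-labelled, kidney-labelled and lung-labelled, were the highest for both.

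Psmb9 did not follow them. It had 3.72, 3.72, 4.28, 1.81, 1.58 and 1.79 RPKM from 8 to 26 reads, and was lowest by value in the lung-labelled library, where Psmb10 was highest. Its intervals in the kidney-labelled (0.826 to 3.43 RPKM), lung-labelled (0.680 to 3.10) and small intestine-labelled libraries (0.819 to 3.40) overlapped. The genes of Psmb8 (chr17:34416690-34420428) and Psmb9 (chr17:34400960-34406738) are neighbors in the MHC region of GRCm39. The density of Psmb8 over that of Psmb9 was nevertheless 65.1 in the lung-labelled library (32.8 to 151) and 29.5 in the brain-labelled (20.0 to 45.4), but 4.93 in the heart-labelled (3.16 to 8.03), 1.01 in the colon-labelled (0.426 to 2.46) and 1.15 in the small intestine-labelled library (0.453 to 3.04). Every 30-base stretch of the Psmb9 CDS was found in no other listed CDS.

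The share of the immunosubunit in the density of both paralogs does not depend on the scaling of libraries. At the β5 position, where Psmb5 had 87.6, 125, 152, 45.5, 52.6 and 99.3 RPKM, Psmb8 made up 55.6% of both in the brain-labelled library (53.2 to 58.0%), 2.91% in the colon-labelled (1.60 to 4.83%), 12.2% in the heart-labelled (10.4 to 14.2%), 41.3% in the kidney-labelled (36.9 to 45.9%), 66.1% in the lung-labelled (63.0 to 69.1%) and 2.03% in the small intestine-labelled library (1.08 to 3.44%). The libraries were therefore ordered lung, brain, kidney, heart by label with intervals that did not overlap, and the colon-labelled and small intestine-labelled libraries were not separated. Among the 2 libraries whose markers matched their labels, the share was 12.2% in the heart-labelled and 66.1% in the lung-labelled one. Over all 5 immunoproteasome genes the lung-labelled library was above the heart-labelled one by a median of 1.85 on the log2 scale, with 3 genes at least 2-fold higher (against 34.2% of all mRNAs) and 1, Psmb9, at least 2-fold lower (against 22.7%).

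At the β2 position Psmb7 had 171, 232, 206, 73.3, 380 and 129 RPKM, and Psmb10 made up 26.1%, 5.72%, 3.97%, 20.4%, 17.5% and 4.26% of both. The brain-labelled, kidney-labelled and lung-labelled libraries were again the highest, but the lung-labelled library, which had the most Psmb10, also had the most Psmb7 and so fell below the brain-labelled one. At the β1 position Psmb6 had 37.3, 15.9, 51.0, 34.4, 37.1 and 19.1 RPKM, and Psmb9 made up 9.08%, 18.99%, 7.74%, 4.996%, 4.07% and 8.60%. The highest of these shares, in the colon-labelled library, came from 11 reads of Psmb9 and 51 of Psmb6, with an interval of 9.92 to 31.3%. That interval overlapped those of the brain-labelled, heart-labelled and small intestine-labelled libraries, but not those of the kidney-labelled and lung-labelled ones. The intervals of the other 5 libraries overlapped each other.

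**Figure D4:**
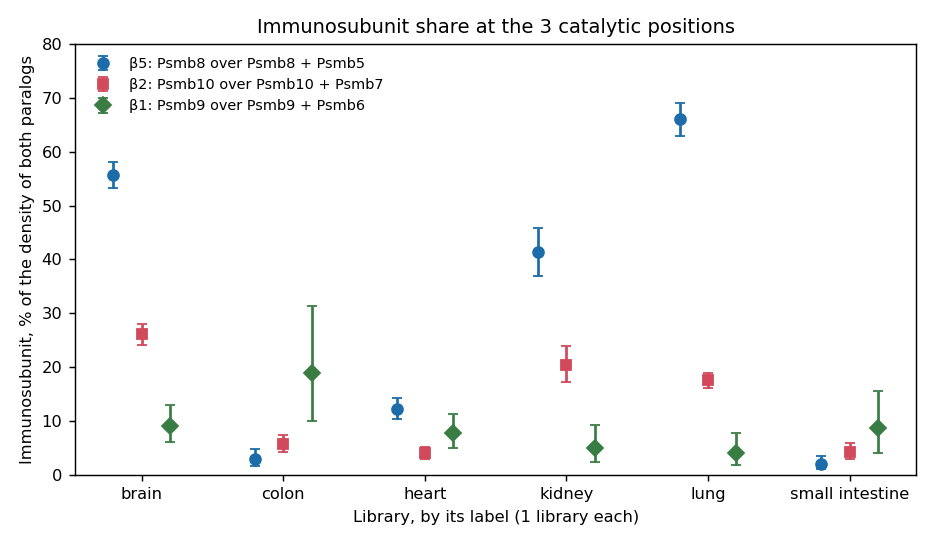
The vertical axis is the percent of the ribosome density of both paralogs that came from the immunosubunit, at the β5 (blue circles), β2 (red squares) and β1 (green diamonds) position, and the horizontal axis gives the library by its label; bars are exact 95% intervals of counting error. The β5 share runs from 2.03% to 66.1%, the β2 share from 3.97% to 26.1%, and the β1 share is under 10% except in the colon-labelled library (18.99%).

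Psmb5 was low where Psmb8 was high. Relative to the density of the other 11 core subunits, Psmb5 alone was 0.746, 1.23, 1.45, 0.861, 0.570 and 1.81, a 3.18-fold range. With Psmb8 added, the β5 position had 1.68 in the brain-labelled library (1.60 to 1.77), 1.26 in the colon-labelled (1.14 to 1.39), 1.65 in the heart-labelled (1.55 to 1.76), 1.47 in the kidney-labelled (1.33 to 1.62), 1.68 in the lung-labelled (1.57 to 1.80) and 1.85 in the small intestine-labelled library (1.70 to 2.02), a 1.46-fold range. The lung-labelled library over the heart-labelled was 0.393 for Psmb5 alone and 1.02 for both paralogs. With the median of the other 11 subunits as the reference the ranges were 2.66-fold and 1.78-fold.

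Adding the immunosubunit narrowed the range less at the other positions, from 2.96-fold to 2.86-fold at β2 and from 4.19-fold to 3.57-fold at β1. With the median of the 11 as the reference it went from 4.604-fold to 4.44-fold at β2 and from 2.29-fold to 1.95-fold at β1. For comparison, Psmb3 alone ranged 1.502-fold, Psmb1 1.75-fold and Psma2 1.85-fold against the same 11 subunits, of which these 3 are themselves part. The range of the summed β5 position thus lay near that of the steadiest single subunits, and the β2 sum was set apart by the lung-labelled library, at 4.99 (4.77 to 5.22) beside 1.75 to 2.47 in the others.

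**Figure D5:**
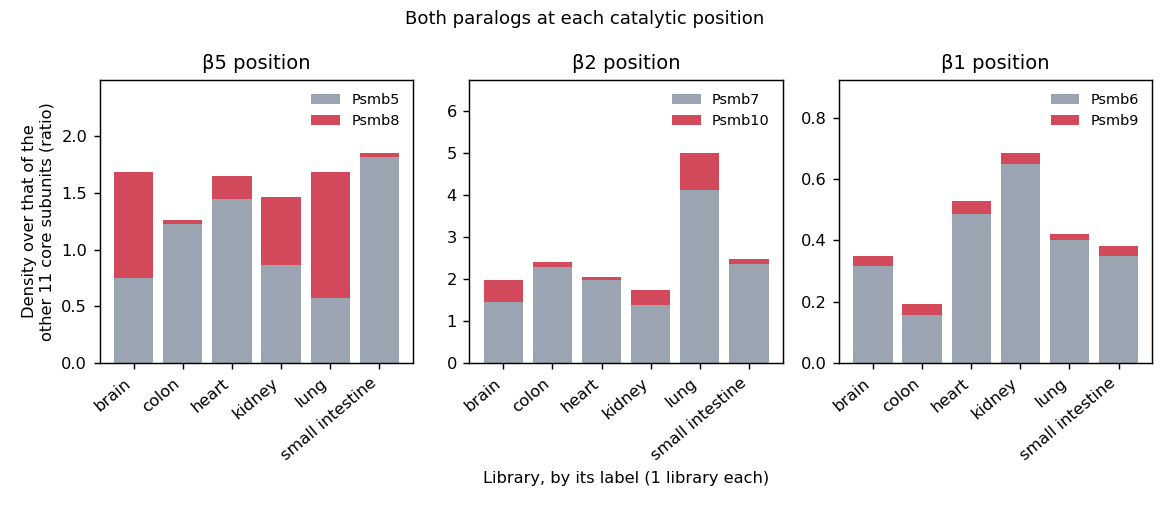
Each bar is the summed ribosome density of both paralogs at a catalytic position divided by the density of the other 11 core subunits (a ratio, with an axis from 0 in each panel), split into the constitutive subunit (grey) and the immunosubunit (red), for the 6 libraries by label. At β5 the grey part ranges 3.18-fold and the whole bar 1.46-fold, whereas at β2 and β1 the whole bar ranges 2.86-fold and 3.57-fold.

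PA28, the activator that caps the core in place of the 19S particle, is made of Psme1 (PA28α) and Psme2 (PA28β), whose genes are neighbors on chromosome 14 (chr14:55815190-55822034 and chr14:55824895-55829173). Psme1 had the highest density of the 50 members by its median (246 RPKM), with 420 RPKM in the brain-labelled library, 225 in the colon-labelled, 267 in the heart-labelled, 142 in the kidney-labelled, 338 in the lung-labelled and 53.2 in the small intestine-labelled library. Psme2 had 38.0, 1.55, 4.43, 3.68, 18.6 and 1.09 RPKM, from 5 to 290 reads. Both were highest in the brain-labelled and lung-labelled libraries and lowest in the small intestine-labelled one, with a range of 7.90-fold (7.02 to 8.91) for Psme1 and 34.7-fold (15.8 to 95.5) for Psme2. The level of Psme2 is uncertain because only 20.9% of the 30-base stretches of its CDS were found in no other CDS, 544 of 688 being shared with Psme2b, and multi-mapped reads were left out. Divided by that share, its density would be 182, 7.40, 21.2, 17.6, 88.8 and 5.23 RPKM.

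The other activators are Psme3 and Psme4. Psme3 (PA28γ), the nuclear relative, had 23.2, 14.3, 15.1, 5.54, 8.32 and 12.5 RPKM. The density of Psme1 and Psme2 over that of Psme3 was 10.05 (8.68 to 11.7), 8.09 (6.06 to 11.04), 9.18 (7.45 to 11.4), 13.4 (9.44 to 19.8), 21.8 (16.4 to 29.6) and 2.21 (1.71 to 2.89), lowest in the small intestine-labelled and highest in the lung-labelled library. Psme4 (PA200), an activator known for its part in spermatogenesis and in the turnover of acetylated histones, had 7.96, 22.5, 83.0, 9.25, 10.9 and 5.04 RPKM. The heart-labelled library was 16.5-fold above the small intestine-labelled one (14.3 to 18.997), and there Psme4 reached 0.737 times the density of the 20S core (0.709 to 0.765), beside 0.0699 to 0.208 in the other 5. Psmf1 (PI31), named as an inhibitor of the core, was low throughout, with 0, 2.73, 2.10, 4.54, 0 and 1.93 RPKM, and no reads in the brain-labelled and lung-labelled libraries.

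The tissue-restricted paralogs had few reads in any library. Psmb11 (β5t), the subunit of the thymus cortex, had no reads in 5 libraries. It had 1.01 RPKM, from 7 reads, in the small intestine-labelled one, where 3 reads would give 0.433 RPKM. Psma8 (α4s), the testis paralog of Psma7, had at most 0.815 RPKM, from 5 reads in the heart-labelled library, where 3 reads would give 0.489 RPKM.

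The 20S assembly chaperones pair up as Psmg1 with Psmg2 and Psmg3 with Psmg4. Psmg1 had 7.70, 56.8, 30.6, 13.1, 6.27 and 8.30 RPKM, and Psmg2 had 7.598, 5.89, 20.2, 6.16, 0 and 4.79 RPKM. The partners differed in the colon-labelled library, where Psmg1 was highest and Psmg2 was not. Psmg3 had 21.3, 21.8, 9.68, 23.8, 31.5 and 5.36 RPKM and Psmg4 had 29.6, 0, 3.97, 6.08, 0 and 0 RPKM, so that Psmg4 had no reads in the lung-labelled library where Psmg3 was highest. Psmg3 is uncertain, since 44.5% of the 30-base stretches of its CDS were found in no other CDS and 187 were shared with Gm26938. Of the 19S chaperones, Psmd10 (gankyrin) had 81.3, 57.0, 62.8, 41.3, 39.8 and 26.2 RPKM, Psmd9 had 0, 15.7, 16.9, 5.15, 12.2 and 14.5 RPKM, and Psmd5 stayed between 4.11 and 10.02 RPKM. The mRNAs that match by name alone were Psmc3ip, a recombination factor of meiosis, with 8.96, 10.9, 7.51, 4.25, 0 and 0 RPKM, and Psme3ip1, with 0.123, 16.3, 13.0, 17.7, 38.5 and 22.1 RPKM, the first value from 1 read (lung-labelled over brain-labelled 312, 55.5 to 12389).

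Genes that work with the proteasome were read from a list of 24 ubiquitin genes, receptors, chaperones and regulators, of which 23 were found and 20 tested. Of these 20, 6 were at least 2-fold above the median of the other libraries and 1 below in the heart-labelled library, 0 above and 5 below in the kidney-labelled, 3 above and 5 below in the lung-labelled, 2 above and 1 below in the brain-labelled, 1 above and 4 below in the colon-labelled and 1 above and 2 below in the small intestine-labelled library. Over all mRNAs the shares in the same order were 20.1% above and 20.1% below, 19.3% and 17.6%, 31.5% and 19.8%, 22.6% and 26.1%, 23.2% and 19.2%, and 27.8% and 22.6%. Their median difference was 0.35 and -0.57 on the log2 scale in the heart-labelled and kidney-labelled libraries and between -0.04 and 0.05 in the others. Sem1, the small 19S subunit outside the name rule, had 292, 300.2, 879, 195, 347 and 166 RPKM, and Pomp, the chaperone that completes the core, had 25.3, 12.6, 52.9, 19.02, 21.4 and 26.3 RPKM. Both were highest in the heart-labelled library. Nfe2l1, the transcription factor that raises proteasome subunits when the proteasome is inhibited, had 29.9, 32.9, 50.7, 68.8, 48.8 and 59.4 RPKM and was highest in the kidney-labelled library, where most constitutive subunits were lowest. Adrm1, the 19S ubiquitin receptor outside the name rule, had no reads in 4 libraries and at most 0.200 RPKM.

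The genes of MHC class I antigen processing, to which the immunoproteasome supplies peptides, were read from a list of 10, of which 9 were tested. They were at least 2-fold above the median of the other libraries for 5, 0, 0, 5, 6 and 0 genes and below for 0, 5, 7, 0, 0 and 7, where all mRNAs had 22.6%, 23.2%, 20.1%, 19.3%, 31.5% and 27.8% above and 26.1%, 19.2%, 20.1%, 17.6%, 19.8% and 22.6% below. B2m, the light chain of MHC class I, had 999.6 RPKM in the brain-labelled library, 187 in the colon-labelled, 144 in the heart-labelled, 369 in the kidney-labelled, 1604 in the lung-labelled and 63.4 in the small intestine-labelled library. The brain-labelled, kidney-labelled and lung-labelled libraries were the highest, as they were for Psmb8 and Psmb10. Of the peptide transporter, Tap2 had 12.0, 16.8, 7.02, 22.0, 56.9 and 5.65 RPKM, and Tap1, next to Psmb9 in the genome, had 6.28, 3.58, 1.86, 5.40, 4.05 and 1.81 RPKM. Tap1 was low in all 6 libraries, as Psmb9 was. By value the brain-labelled, kidney-labelled and lung-labelled libraries were the highest for Tap1, and the lung-labelled one was the lowest for Psmb9. Within counting error Psmb9 did not separate that library from the kidney-labelled and small intestine-labelled ones. No interval was taken for Tap1, so a difference in order between these genes cannot be stated. Of 11 interferon-induced genes tested, 6, 2, 0, 1, 9 and 0 were at least 2-fold above and 0, 1, 3, 2, 0 and 10 below, against those same shares of all mRNAs.

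Leukocytes express immunosubunits in many tissues, and the summed level of leukocyte markers was highest in the same 3 libraries. The 15 markers summed to 389 RPKM in the brain-labelled library, 62.9 in the colon-labelled, 186 in the heart-labelled, 268 in the kidney-labelled, 567 in the lung-labelled and 193 in the small intestine-labelled library. C1qa alone gave 100, 32.9, 109, 144, 81.1 and 76.4 RPKM of these sums, so the place of the kidney-labelled library rested largely on that gene. Singly the markers differed, with 10 of the 15 highest in the lung-labelled library, 1 in the brain-labelled, 2 in the kidney-labelled and 2, Tyrobp and Csf1r, in the small intestine-labelled one. No share of all mRNAs by highest library was set beside these counts, so they cannot show whether the markers differ from other mRNAs in this. Of 13 tested, 7, 0, 1, 4, 9 and 0 were at least 2-fold above the median of the other libraries and 0, 9, 4, 1, 1 and 5 below, against the shares of all mRNAs given above. Their median difference was 1.13, -1.58, -0.003, 0.04, 2.83 and -0.20 on the log2 scale. The pan-leukocyte marker Ptprc had 31.5, 0.286, 4.88, 11.4, 69.6 and 1.05 RPKM. Markers without reads were none in the brain-labelled library, 5 in the colon-labelled, 4 in the heart-labelled (among them Cd52, Cd3e and Itgam), 3 in the kidney-labelled (Cd3e, Cd3g and Cd79a), 2 in the lung-labelled (Cd52 and Itgam) and 4 in the small intestine-labelled one. The part of leukocytes in the immunosubunit shares was not tested.

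Codon composition and length, which the name rule did not use, were read from the CDSs. The percent of codons ending in G or C was between 62.1% and 66.7% in the 5 immunoproteasome genes (median 63.7%), within the 33.6% to 71.8% covered by the 30 constitutive subunits with a value (median 54.4%), beside a median of 58.9% over all 18176 matched CDSs. Their CDSs were short, with a median of 747 bases against 963 for the constitutive subunits and 1323 for all.

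Promoters were searched because several immunoproteasome genes were high in the same libraries. RefSeq windows of GRCm38.p6, from 250 bases before to 50 after the start of the gene, were searched on both strands, and a window was found for 25 of the 31 constitutive subunits and all 5 immunoproteasome genes. A gene was counted if any of its windows held the motif. The interferon response motif ISRE, searched as GAAA, any 2 bases and GAAA again, was in 1 of the 5 (Psme1), in 2 of the 25 (Psmb3 and Psmd4) and in 3.99% of 27025 genes. The interferon-γ motif GAS, searched as TTCNNNGAA, was in 1 of the 5 (Psmb8), in 1 of the 25 (Psmd2) and in 9.55% of all. The antioxidant motif ARE, searched as TGACNNNGC, was in 0 of the 5, in 4 of the 25 (Psmb5, Psmb6, Psmc6 and Psmd12) and in 13.99% of all. The matches in the immunoproteasome genes are printed in their surroundings, with the motif in capitals, that of Psme1 being the reverse complement of the letters searched.
Psme1: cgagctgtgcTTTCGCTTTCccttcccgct
Psmb8: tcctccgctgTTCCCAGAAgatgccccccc
They lie on the plus strand of GRCm38.p6 at chr14:55578493-55578522 and chr17:34198088-34198117. A match is a description of letters and not of binding.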

How the data were processed

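The authors deposited 1 table per library with an RPKM value for each protein-coding mRNA, and no other file was used. The methods describe these steps for macrophages, and the tissues are assumed to have been treated alike. Adapters were removed with Cutadapt, reads under 15 nt were dropped, as were those with over 2 mismatches or several map positions, and STAR aligned the rest to the mRNA with the longest CDS per gene (Ensembl release 107, GRCm39). The product of RPKM and CDS length recovered whole reads in 100% of cases (tolerance 1e-06). Differences are on the log2(RPKM + 1) scale, which understates those of low genes, for mRNAs with a mean of at least 1 RPKM.

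Groups followed the labels, with 1 library each, so nothing was tested and intervals are exact binomial (Clopper-Pearson) or Poisson ones. An mRNA not listed in a library was counted as without reads there, also in the shares over all mRNAs. An mRNA without reads was given the density of 3 reads as its upper limit. The members and gene lists were chosen with earlier results of these data known. Values per library were given for every immunoproteasome gene and its counterpart, activators, inhibitor, restricted paralogs, 20S chaperones, the highest and lowest core and 19S subunit, each member 2-fold off in any library, and 7 list genes, 1 more being not reported here; other list genes were chosen after their values were seen. Alternatives changed scaling, total, pseudocount, filter, threshold, depth, reference and the libraries used. CDS sequences came from GENCODE release M39, matched for 49 of 50 members (Psmd8 was not matched). Recovery of reads and calls were tested on simulated data. The software was Python 3.11.15 with matplotlib 3.10.9, pandas 2.3.3, scipy 1.17.1 and numpy 2.4.6.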

Additional observations from a re-analysis of the deposited data

How the results depend on the processing

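With 1 library per label, what limits every value is the absence of replicates, and low members (Psmb9, Psmb2, Psme2, Psmf1, Psmg4) rest on few reads. No paired analysis was possible because each label has 1 library, so that the groups share fewer than 2 replicate numbers. Lists of values below follow the labels alphabetically unless labels are named, and the cause of each change was not tested. The highest over lowest core subunit and the number of members with a 4-fold range stayed within their limits under every alternative tried.

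Scaling by median-of-ratios size factors turned the median difference of the constitutive subunits in the lung-labelled library from 0.16 to -0.14. With it, members at least 2-fold above became 17 in the heart-labelled (35.4%, against 23.4% of all mRNAs) and 3 in the lung-labelled library (6.25%, against 21.6%). Those below became 1 in the heart-labelled (2.08%, against 16.9%) and 7 in the kidney-labelled library (14.6%, against 13.6%). They became 13 in the lung-labelled (27.1%, against 25.2%) and 7 in the small intestine-labelled one (14.6%, against 19.4%). The total was also taken without the 10 most-read mRNAs. Members above were then 5 in the brain-labelled (10.4%, against 20.1%) and 2 in the kidney-labelled library (4.17%, against 25.9%). Members below were 4 in the kidney-labelled (8.33%, against 12.5%) and 8 in the lung-labelled one (16.7%, against 23.5%). Reads on all members then made up 0.447%, 0.454%, 0.599%, 0.295%, 0.424% and 0.297%, on constitutive subunits 0.372%, 0.395%, 0.488%, 0.248%, 0.360% and 0.276%, and on immunoproteasome genes 0.0565%, 0.0233%, 0.0305%, 0.0242%, 0.0466% and 0.00625%, so the kidney-labelled library remained the lowest for the constitutive subunits and the small intestine-labelled one for the immunoproteasome genes.

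A pseudocount of 0.1 RPKM gave 2 members above in the kidney-labelled library (4.17%, against 24.2% of all mRNAs). It gave 8 below in the lung-labelled one (16.7%, against 26.8%). No filter gave 1 above in the small intestine-labelled one (2%, against 24.2%). At 1.5-fold, members above were 20 in the brain-labelled (41.7%, against 30.9%), 17 in the colon-labelled (35.4%, against 33.3%) and 23 in the heart-labelled library (47.9%, against 29.1%). They were 3 in the kidney-labelled (6.25%, against 27.7%) and 1 in the small intestine-labelled one (2.08%, against 35.6%). Members below were 8 in the brain-labelled (16.7%, against 34.7%) and 27 in the kidney-labelled library (56.25%, against 29.6%). They were 13 in the lung-labelled (27.1%, against 26.5%) and 25 in the small intestine-labelled one (52.1%, against 31.9%). Between the heart-labelled and lung-labelled libraries alone, 12 members were lower in the latter (25%, against 22.7%). Another 5 were higher in it (10.4%, against 34.2%), so that 5 counted as lower in the heart-labelled one. Leaving each other library out in turn, members above ranged from 7 to 13, 6 to 8, 8 to 12, 2 to 2, 7 to 10 and 0 to 0, and members below from 4 to 6, 3 to 7, 1 to 3, 9 to 18, 5 to 8 and 8 to 14. The largest changes in members came without the heart-labelled library. They were 13 above in the brain-labelled library (27.1%, against 21.3%) and 9 below in the kidney-labelled one (18.8%, against 18.4%). Members with a 4-fold range numbered 15 to 19 when a library was left out.

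With the other 11 core subunits in place of the constitutive paralog, the β5 share was 48.3% in the brain-labelled, 16.8% in the heart-labelled, 52.6% in the lung-labelled and 3.62% in the small intestine-labelled library. The β2 share was 33.9%, 12.1%, 7.52%, 26.3%, 46.7% and 9.51%, which put the lung-labelled library first. The β1 share was 3.07% in the brain-labelled, 3.51% in the colon-labelled, 3.93% in the heart-labelled, 1.68% in the lung-labelled and 3.17% in the small intestine-labelled library, and 2.07% in the kidney-labelled one after thinning to the lowest total. Against the median of those 11 subunits, the summed density was 2.13, 2.59, 2.31, 1.65, 2.93 and 2.24 at β5 and 2.496, 4.95, 2.86, 1.96, 8.70 and 2.98 at β2. At β1 it was 0.443, 0.394, 0.738, 0.731 and 0.461 in all but the kidney-labelled library.

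The ratio of the 19S particle to the 20S core, taken from medians, was 0.639 in the brain-labelled, 1.03 in the colon-labelled, 1.08 in the heart-labelled, 1.61 in the lung-labelled and 1.16 in the small intestine-labelled library. From the ATPases alone it was 1.06 in the colon-labelled, 1.05 in the heart-labelled, 0.902 in the lung-labelled and 1.24 in the small intestine-labelled library. PA28α and PA28β relative to the 20S core in place of PA28γ was 2.05, 1.07, 1.23, 1.41, 1.67 and 0.449, and Psme1 alone over PA28γ was 18.1, 15.8, 17.7, 25.7, 40.6 and 4.25. Density per unique 30-base stretch was an alternative added after seeing the data. With it, PA28α and PA28β over PA28γ was 13.1 in the brain-labelled library, beside 10.05 from the RPKM. The immunosubunit shares could not change under it, since every such stretch of both paralogs was unique at each catalytic position.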
